A study of Homo sapiens with 132 samples.

Results

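The genes described here encode integrin subunits, the cell surface receptors by which cells hold the extracellular matrix. They were 10 of the 65217 gene identifiers counted in each library: the alpha subunits ITGA2, ITGA3, ITGA5, ITGA6 and ITGAV, and the beta subunits ITGB1, ITGB3, ITGB4, ITGB5 and ITGB6. They were picked by symbol, with earlier results of these data known, and no measured value entered the rule itself. On GRCh38 ITGA2 lies at chr5:52989326-53094779, ITGA3 at chr17:50055968-50090481, ITGA5 at chr12:54395261-54419460, ITGA6 at chr2:172427354-172506282 and ITGAV at chr2:186590065-186680901. ITGB1 lies at chr10:32900319-33005792, ITGB3 at chr17:47253846-47311816, ITGB4 at chr17:75721328-75757818, ITGB5 at chr3:124761948-124901418 and ITGB6 at chr2:160099666-160200313. The libraries were made from poly(A) RNA of 4 gastric cancer lines (Hs746T, MKN1, MKN7 and NCI-N87), and 132 libraries covered 44 conditions with 3 replicates each. All cells were left untreated or treated for 4 h or 24 h in medium with fetal calf serum (RPMI for MKN1, MKN7 and NCI-N87, DMEM for Hs746T). MKN1 and Hs746T cells received EGF (5 ng/ml), the EGFR antibody cetuximab (1 µg/ml), EGF + cetuximab, the HER2 antibody trastuzumab (5 µg/ml), the HER family kinase inhibitor afatinib (0.5 µM) or trastuzumab + afatinib. MKN7 and NCI-N87 cells received only trastuzumab, afatinib or both. Afatinib-treated cells were compared with untreated cells. The paper names DMSO as the solvent control for afatinib, but none of these libraries had that treatment. Effects of afatinib and of its solvent cannot be told apart here. Each line is a single established line, and the study's methods speak of independent experiments for its in vitro data in general. The labels do not say what separates the libraries of a group, so p-values measure the spread between these libraries.

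An integrin is a pair of an alpha and a beta subunit. ITGB1 pairs with ITGA2 to bind collagen, with ITGA3 and ITGA6 to bind laminins and with ITGA5 to bind fibronectin. ITGA6 also pairs with ITGB4, whose long cytoplasmic tail anchors keratin filaments in hemidesmosomes. ITGAV pairs with ITGB3, ITGB5 or ITGB6, which bind vitronectin, fibronectin and, for ITGB6, the latency peptide of TGF-beta. Integrins and HER receptors share signalling through focal adhesion kinase and Src, and integrin levels bear on adhesion and migration of carcinoma cells.

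Of the 10 genes, 8 had enough counts to be tested in every fit. ITGA5 was listed at 0 counts in all 132 libraries, and the gene AC079313.1, which overlaps its exons on the opposite strand, was at 0 too. In all, 1970 of 19674 protein-coding genes were listed at 0 in every library, and the reason was not tested, so no statement on ITGA5 expression is drawn from the files. ITGB3 had counts in 48 of 132 libraries and never more than 3 counts in any library, which is at the 3 counts (0.0432 to 0.116 CPM, the count scaled to the library total) taken as the limit of detection. Libraries held 25832557 to 69434151 counts (median 50725775). The ITGA6 and ITGB1 exons overlap genes on the opposite strand that held counts of their own (AC078883.1 and ITGB1-DT). The library kit marked strand, but the strand setting of the counting is not given in the sources used here, so reads of these pairs may not be told apart.

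Promoter windows of the 4 members whose levels moved most in the treatments below, or moved against the rest, are shown first, from RefSeq (GRCh38.p14, 250 bases before to 50 after the start site, 5′ to 3′ on the gene's strand). Capitals mark matches to 6 motifs searched on both strands: the AP-1, GC box, ETS, TATA, TEAD and CArG motifs. No match of one motif overlapped a match of another in the printed windows. The ITGA2 window (chr5:52989102-52989401, plus strand) held 4 GC boxes, spelled GGGCGG, and no other match. The ITGA6 window (chr2:172427086-172427385, plus strand) held 1 match to the TATA motif, spelled TATAAA, on the opposite strand 32 bases before the start, and 1 GC box. The ITGB5 window (chr3:124901369-124901668, minus strand) held 2 GC boxes and 1 match to the ETS core, spelled CCGGAAG. The ITGB6 window (chr2:160200223-160200522, minus strand) held 1 CArG box and no GC box.
ITGA2: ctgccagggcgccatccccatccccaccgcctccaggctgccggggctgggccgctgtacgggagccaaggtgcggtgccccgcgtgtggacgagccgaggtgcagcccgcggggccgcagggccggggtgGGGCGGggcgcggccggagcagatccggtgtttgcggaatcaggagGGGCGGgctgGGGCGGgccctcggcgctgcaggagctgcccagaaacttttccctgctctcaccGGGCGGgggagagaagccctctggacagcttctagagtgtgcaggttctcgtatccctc
ITGA6: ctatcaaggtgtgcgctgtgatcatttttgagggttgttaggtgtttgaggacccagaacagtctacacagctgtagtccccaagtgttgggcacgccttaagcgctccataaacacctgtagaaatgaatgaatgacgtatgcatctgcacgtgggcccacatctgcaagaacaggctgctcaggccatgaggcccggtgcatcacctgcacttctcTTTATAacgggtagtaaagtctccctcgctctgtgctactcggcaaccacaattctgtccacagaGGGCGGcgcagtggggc
ITGB5: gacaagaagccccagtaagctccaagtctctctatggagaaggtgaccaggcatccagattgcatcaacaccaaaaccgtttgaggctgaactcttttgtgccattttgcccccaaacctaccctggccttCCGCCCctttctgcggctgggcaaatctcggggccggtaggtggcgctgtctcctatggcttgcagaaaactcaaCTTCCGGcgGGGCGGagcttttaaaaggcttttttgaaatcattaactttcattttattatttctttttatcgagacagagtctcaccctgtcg
ITGB6: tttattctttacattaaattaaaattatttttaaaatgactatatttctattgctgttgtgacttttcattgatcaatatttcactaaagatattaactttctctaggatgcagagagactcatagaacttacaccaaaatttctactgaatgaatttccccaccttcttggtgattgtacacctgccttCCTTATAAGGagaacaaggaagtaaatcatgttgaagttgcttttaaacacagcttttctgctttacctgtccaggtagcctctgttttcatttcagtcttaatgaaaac
Among 27305 RefSeq windows of this length, 44.6% held a GC box, 10.7% the ETS motif and 1.29% the CArG box. The AP-1 motif, spelled TGANTCA, was in 7.76% of them. The TEAD motif, spelled ACATTCC, was in 3.48%, and the TATA motif in 3264 windows. RefSeq windows matched 7 members, with ITGA3, ITGB3 and ITGB4 not among them. Of the 3 windows not printed, ITGB1 had 3 GC boxes, ITGA5 had 1 GC box and 1 AP-1 match, and ITGAV had no match. The windows of the 4 members printed had no AP-1 and no TEAD match, which says only that these letters are not in them.

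Levels of markers set the lines apart before any treatment. Epithelial CDH1 (E-cadherin) was at 226 to 285 CPM in untreated MKN7 libraries and 206 to 337 CPM in NCI-N87, but at 1.00 to 3.10 CPM in MKN1 and 0.564 to 1.07 CPM in Hs746T. The mesenchymal marker VIM (vimentin) was at 1373 to 1976 CPM in Hs746T and 299 to 685 CPM in MKN1, against a median of 3.47 CPM in MKN7 and 3.58 CPM in NCI-N87. KRT8, an epithelial keratin, was lowest in Hs746T at 302 to 405 CPM. Its median was 11359 CPM in MKN1 and 10202 CPM in NCI-N87. KRT18 and KRT19 had medians of 3092 and 4026 CPM in MKN1, beside 2983 and 4431 CPM in NCI-N87. Epithelial EPCAM and mesenchymal ZEB1 went with CDH1 and VIM. Their medians were 25.6 and 38.6 CPM in MKN1 and 616 and 3.49 CPM in MKN7. Mesenchymal CDH2 had a median of 0.343 CPM in MKN1 and 80.9 CPM in Hs746T. SPARC, also mesenchymal, had medians of 1158 CPM in MKN1, 331 CPM in Hs746T and 126 CPM in MKN7. The leukocyte marker PTPRC stayed at or below 0.65 CPM in every untreated library, and the endothelial marker PECAM1 reached 93.1 to 216 CPM in Hs746T.

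The levels between lines were compared in the 24 untreated libraries, 6 per line over both times, as RPKM (CPM divided by the length of the exons in kilobases), which allows genes of different length to be set side by side. ITGB1 was abundant everywhere, with medians of 97.0 RPKM in MKN1, 93.9 in NCI-N87, 92.6 in MKN7 and 58.5 in Hs746T. The first 3 of these overlapped with their neighbours, and every Hs746T library was below every MKN7 library. ITGA3 had the highest median of the alpha subunits in each line, at 153 RPKM (89.3 to 222) in MKN1, 79.5 RPKM (68.1 to 91.8) in NCI-N87, 67.5 RPKM (54.5 to 78.9) in MKN7 and 52.4 RPKM (47.3 to 59.1) in Hs746T, each neighbour overlapping the next. ITGA2 was lowest in MKN1, at 2.64 to 15.9 RPKM (median 6.94), against 15.6 to 27.9 RPKM (median 23.3) in NCI-N87, 30.9 to 43.0 RPKM (median 38.1) in Hs746T and 20.7 to 55.3 RPKM (median 43.4) in MKN7. ITGA6 was highest in NCI-N87 (median 30.5 RPKM), and its medians in MKN1, Hs746T and MKN7 were 14.7, 14.1 and 13.6 RPKM. ITGA6 overlapped between NCI-N87 and MKN1 and among the other neighbours. ITGAV had the lowest median of the alpha subunits tested in every line, at 6.96 RPKM in MKN7, 5.67 in MKN1, 5.09 in NCI-N87 and 2.91 in Hs746T.

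Beta subunits with a restricted range showed the largest gaps between lines. ITGB4, the hemidesmosome subunit, had medians of 116 RPKM in MKN7, 58.0 in NCI-N87 and 14.6 in MKN1, and these 3 lines did not overlap. In Hs746T it was at 0.0646 to 0.193 RPKM, below every library of the other lines. ITGB6 had medians of 18.0 RPKM in NCI-N87, 8.63 in MKN7, 0.969 in Hs746T and 0.639 in MKN1. Hs746T and MKN1 overlapped over both times together, and both lay below every MKN7 and NCI-N87 library. At 4 h alone Hs746T (0.580 to 1.04 RPKM) lay above MKN1 (0.456 to 0.536 RPKM). ITGB5 was at 47.6 RPKM in MKN7, 44.3 in Hs746T, 30.4 in NCI-N87 and 16.9 in MKN1, with MKN7 and Hs746T overlapping. The plot of untreated levels shows these gaps for each library.

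**Figure D1:**
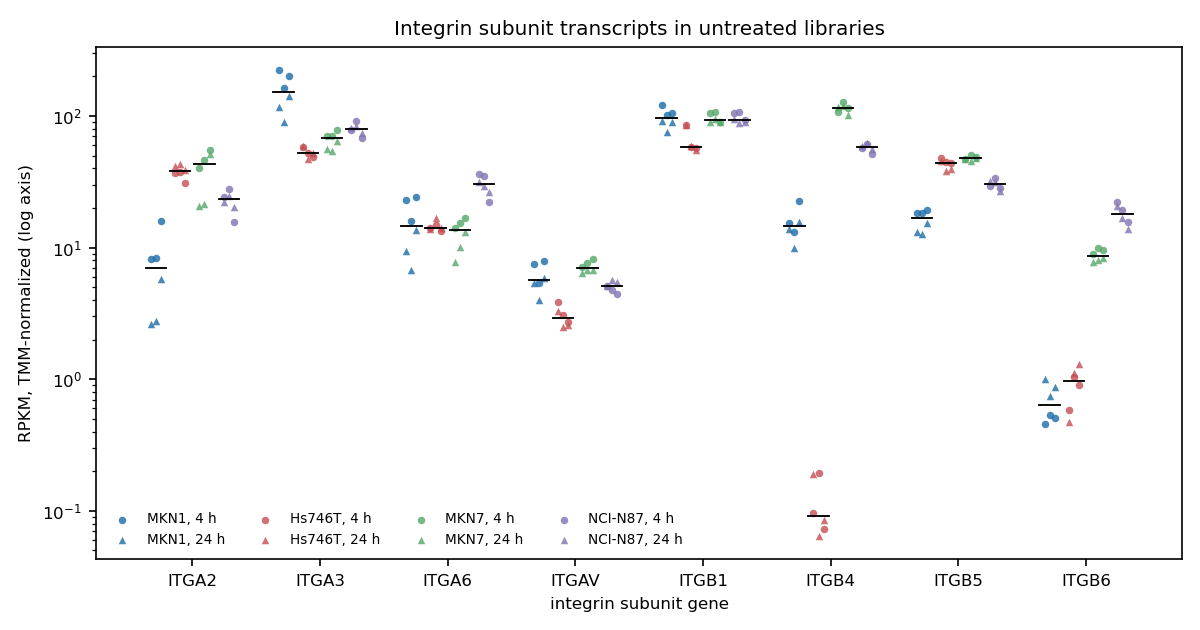
Each point is 1 untreated library, placed by integrin subunit gene (x axis) and RPKM on a log axis (y axis), coloured by cell line, with circles for 4 h, triangles for 24 h and a black line at the median of 6 libraries. ITGB1 lies between 54.8 and 121 RPKM in all lines, ITGB4 falls to 0.0646 to 0.193 RPKM in Hs746T, and ITGB6 is separated between MKN7 or NCI-N87 and the other lines.

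In the test between untreated lines (log2FC of the mean over both times, edgeR, all 20560 genes tested), 7 of 8 members differed between MKN1 and Hs746T, where 79.9% of all genes did, 6 of 8 between MKN1 and MKN7 (75.8%), 6 of 8 between MKN1 and NCI-N87 (78.7%), 6 of 8 between Hs746T and MKN7 (78.2%), 8 of 8 between Hs746T and NCI-N87 (79.6%) and 7 of 8 between MKN7 and NCI-N87 (76.8%). The members' shares were near those of all genes. Hs746T cells were grown in DMEM and the other lines in RPMI. Wherever levels or tests set Hs746T against another line, line and medium cannot be told apart. ITGB4 was lower in Hs746T than in MKN7 with log2FC = -9.86 ± 0.24 (SE, p.adjust = 4.72e-20), and ITGB6 was lower in MKN1 than in NCI-N87 with log2FC = -4.77 ± 0.19 (p.adjust = 3.91e-16). ITGA2 was lower in MKN1 than in MKN7 (log2FC = -2.60 ± 0.24, p.adjust = 9.45e-10), and ITGA3 was higher (log2FC = 1.21 ± 0.10, p.adjust = 3.68e-10). The smaller differences depended on the fit: ITGB6 between MKN1 and Hs746T (-0.44) lost its call at 24 h alone (p.adjust = 0.706), with at least 10 counts in every library (0.0782) and without replicate 2 (0.401) or 3 (0.343), and ITGB5 between Hs746T and MKN7 (-0.15) lost it in 6 of the alternatives. ITGB1 differed by 0.01 ± 0.10 between MKN1 and MKN7 (95% interval from the SE, -0.19 to 0.22).

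One Hs746T library stood apart, EGF + cetuximab 4 h replicate 1, and this touches ITGB4. ITGB4 had 15.5 CPM there and 0.235 to 4.01 CPM in the other 41 Hs746T libraries. Genes high in MKN7 and near 0 in Hs746T (9 genes, picked for this pattern after their values were seen, without ITGB4) stood at 2.25% of their MKN7 level in that library and at 0.0802 to 0.603% (median 0.166%) in the others. ITGB4 itself stood at 2.09% of its MKN7 median there and at 0.0316 to 0.536% in the others. Over those 41 libraries both shares moved together (Pearson's r = 0.94, a description, as the libraries share the same MKN7 values). Every line held some of this signal, with a highest value of 0.961% for genes of any other line outside that library. The ITGB4 shares in Hs746T overlapped with those of the MKN7 genes, and the lowest lay below the lowest of them; the part of this signal in the ITGB4 values was not tested.

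**Figure D2:**
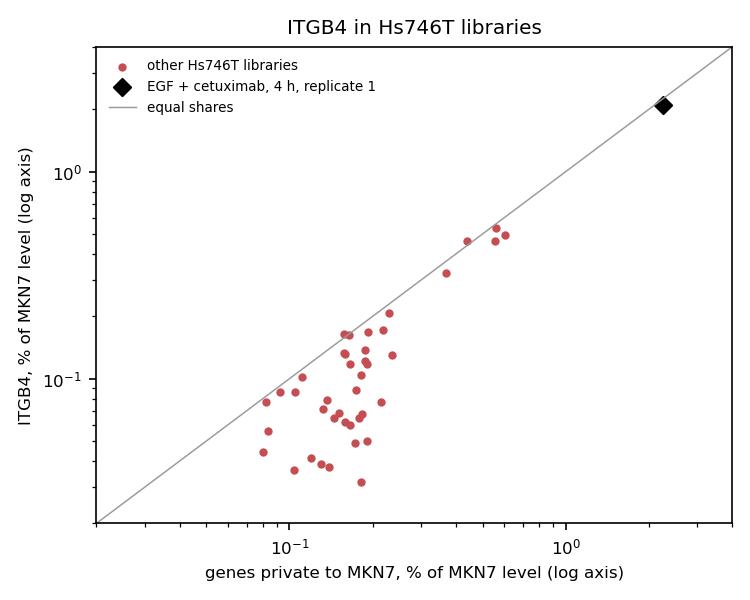
Each point is 1 of 42 Hs746T libraries, with the summed level of 9 genes private to MKN7 as a percentage of their MKN7 level (x axis) and ITGB4 as a percentage of its MKN7 median (y axis), both on log axes, and a grey line where the shares are equal. The black diamond, EGF + cetuximab 4 h replicate 1, lies at 2.25% and 2.09%, and the other libraries lie at or below 0.603% and 0.536%.

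EGF was given to ask which transcripts respond to EGFR activation. In MKN1 cells ITGA2, the collagen receptor subunit, rose after 4 h EGF treatment, and after 24 h ITGA2, ITGA6, ITGB5, ITGA3 and ITGB1 were higher and ITGB6 was lower. Levels are CPM scaled by TMM (trimmed mean of M values) within a line, "changed" means an adjusted p under 0.05 and "regulated" also a log2FC above 1 or below -1. ITGA2 was at 64.9, 67.4 and 129 CPM in the untreated 4 h replicates 1 to 3 and at 279, 276 and 420 CPM after EGF. Replicate 3 was the highest in both groups, and the groups did not overlap. The log2FC was 1.90 ± 0.36 (SE, n = 3, p.adjust = 0.000396), 3.74-fold, and ITGA2 was the only 1 of 8 members that changed, where 6.82% of all 19815 genes changed and 1.48% were regulated. With the replicate number as a block, ITGA6 (log2FC = 0.78 without the block, p.adjust = 0.0555 without and 1.68e-06 with it), ITGB1 (0.24, 0.196 and 7.47e-05) and ITGA3 (0.28, 0.461 and 0.0105) passed as well, all higher, where the block called 17% of all genes. Without replicate 1 the ITGA2 log2FC was 1.83 (p.adjust = 0.0815).

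After 24 h EGF 6 of 8 members changed in MKN1, beside 35.8% of all genes (8.36% regulated). ITGA2 was at 21.0, 22.4 and 46.0 CPM in untreated and 141, 125 and 190 CPM in EGF-treated replicates, with log2FC = 2.35 ± 0.36 (p.adjust = 5.96e-06), 5.10-fold. ITGA6, the laminin receptor subunit, was at 61.6, 44.7 and 90.0 CPM without and 193, 154 and 223 CPM with EGF (log2FC = 1.54 ± 0.26, p.adjust = 1.63e-05). No EGF-treated library overlapped with an untreated library for either gene. ITGB5 rose from 89.7 ± 9.85 to 144 ± 8.44 CPM (SD, log2FC = 0.68 ± 0.07, p.adjust = 1.2e-08), ITGA3 from 1154 ± 267 to 1793 ± 64.2 CPM (log2FC = 0.64, p.adjust = 0.00431) and ITGB1 from 520 ± 53.4 to 646 ± 73.3 CPM (log2FC = 0.31, p.adjust = 0.0182). ITGB6 went the other way, from 4.75, 3.54 and 4.12 CPM to 2.30, 2.06 and 2.53 CPM (log2FC = -0.85 ± 0.15, p.adjust = 5.37e-05). ITGAV (log2FC = -0.19, p.adjust = 0.517) and ITGB4 (log2FC = 0.58, p.adjust = 0.11) did not pass, and both passed with the block (adjusted p of 0.0312 and 1.42e-06; 49.5% of all genes with the block). The median log2FC of the 8 members was 0.61, and that of all genes was -0.05. Scaled by library size alone, the median of all genes was -0.24 and the ITGB1 log2FC was 0.12 (p.adjust = 0.371); ITGB1 also lost its call without replicate 1 (p.adjust = 0.0636) and without replicate 3 (0.208) and in the fit of the compared groups alone (0.108), and ITGA3 without replicate 1 (0.0626).

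Genes around the integrins were followed in 4 lists. Beside the counts below, EGF in MKN1 changed 6.82% of all genes at 4 h and 35.8% at 24 h. Of 28 adaptors and focal adhesion genes tested, 7 were higher and 1 lower after 4 h EGF, with FERMT1 (kindlin, an integrin activator) at log2FC = 1.29 and TNS4 (a tensin that binds beta subunit tails) at 1.18, and 14 were higher and 4 lower after 24 h, with TNS4 at 2.49 and TNS3 at -1.38. Of 7 hemidesmosome partners, 2 were higher at 4 h and 4 at 24 h, among them LAMA3 (a chain of the laminin bound by ITGA3 and ITGA6) at 2.07 and 2.17. Of 18 matrix ligands tested, 1 was higher at 4 h, and at 24 h 4 were higher and 5 lower, with NPNT (nephronectin) at -2.10. Of 15 other integrin subunits tested, none changed at 4 h, and at 24 h 1 was higher (ITGA9, 1.13) and 3 were lower, with ITGAX at -1.06.

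**Figure D3:**
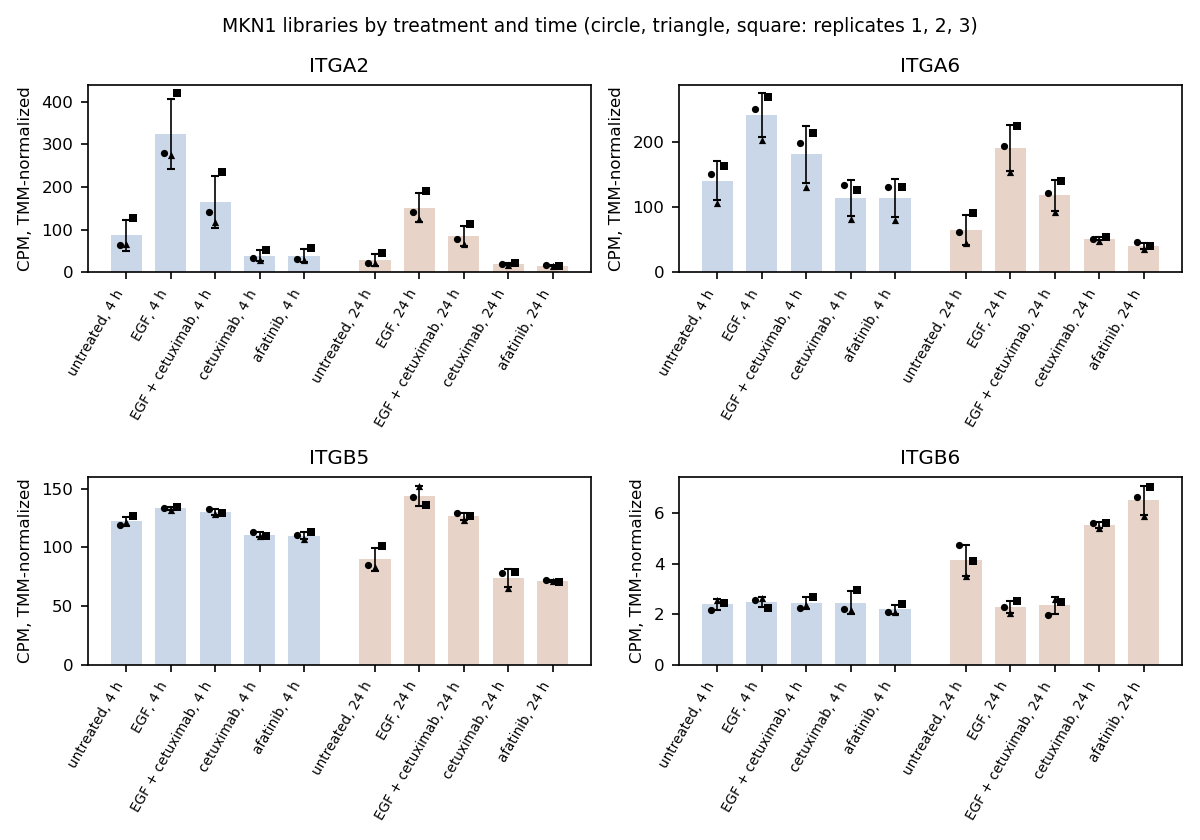
Bars give the mean CPM of 3 MKN1 libraries (y axis from 0) for each treatment at 4 h (blue) and 24 h (red-brown), error bars the SD, and circles, triangles and squares replicates 1, 2 and 3. ITGA2, ITGA6 and ITGB5 are highest with EGF, with ITGA2 reaching 420 CPM at 4 h, and ITGB6 at 24 h is lowest with EGF or EGF + cetuximab and reaches 7.04 CPM with afatinib.

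Cetuximab was added to EGF to ask whether the antibody blocks its effect. In MKN1 cells given both, ITGA2 was at 142, 118 and 235 CPM after 4 h and at 77.7, 67.5 and 113 CPM after 24 h, between the untreated and the EGF levels. Against EGF alone no member changed at 4 h (0.701% of all genes changed) or 24 h (0.646%) in edgeR, 0 by DESeq2 and 1 and 3 of 8 at an unadjusted p under 0.05. The ITGA2 log2FC was -0.98 at 4 h (95% interval -1.66 to -0.30, p.adjust = 0.37) and -0.82 at 24 h (p.adjust = 0.387). With the replicate block 2 members were lower at 4 h (3.99% of all genes changed), ITGA2 (p.adjust = 1.29e-05) and ITGA6 (0.0152), and 4 at 24 h (7.22%), ITGA2 (0.000267), ITGA6 (7.88e-05), ITGB1 (0.0309) and ITGB4 (0.000163). Against untreated cells EGF + cetuximab changed 0 of 8 members at 4 h (0.717% of all genes; 1 at an unadjusted p under 0.05, 0 by DESeq2, and with the block, which called 3.93% of all genes, ITGA2 and ITGB4 were higher at adjusted p of 7.33e-05 and 0.0428). At 24 h it changed 4 of 8 (18.6%, 3.38% regulated): ITGA2 was higher (log2FC = 1.53 ± 0.36, p.adjust = 0.00247), ITGA6 (0.85, p.adjust = 0.0167) and ITGB5 (0.49, p.adjust = 1.3e-05) were higher, and ITGB6 was lower (-0.82, p.adjust = 0.000257). With the block ITGA3 (0.000198) and ITGB1 (0.0116) were higher too (34.4% of all genes). ITGA6 lost its call in the fit of the compared groups alone (p.adjust = 0.0511). Without replicate 1 ITGA2 (1.40, p.adjust = 0.173), ITGA6 (0.79, 0.329) and ITGB6 (-0.59, 0.113) did not pass.

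Cetuximab alone lowered ITGB5 in MKN1 after 24 h, from 89.7 ± 9.85 to 74.0 ± 7.83 CPM (SD), with no overlap between the groups (log2FC = -0.28 ± 0.07, p.adjust = 0.0116), the only member of 8 to change beside 10.8% of all genes. ITGA2 was at 34.3, 28.7 and 53.2 CPM after 4 h cetuximab, below all 3 untreated libraries (log2FC = -1.16 ± 0.35, p.adjust = 0.0999), and 0 of 8 members changed (1.43% of all genes; 1 at an unadjusted p under 0.05, 0 by DESeq2). With the block, ITGA2 (2.48e-06) and ITGB4 (0.031) were lower at 4 h (7.5% of all genes changed). At 24 h (28.3%) the block gave ITGA2 (0.0271), ITGA3 (0.00931) and ITGB5 (0.000778) as lower and ITGB4 (0.00848) and ITGB6 (0.00859) as higher. The ITGB5 call was lost in the fit of the compared groups alone (p.adjust = 0.151), without replicate 1 (0.0609) and without replicate 3 (0.228). In the adaptor list TNS4 was lower at both times (log2FC = -1.96 and -1.98).

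Afatinib was applied to all 4 lines. It lowered ITGA2 in MKN7 and NCI-N87 at both times, and after 24 h it lowered ITGA2, ITGA3, ITGA6, ITGB1 and ITGB5 in both of these lines; in MKN1 at 24 h ITGA6 and ITGB5 were lower and ITGB6 was higher. In MKN7 cells 4 of 8 members changed after 4 h (22.2% of 18483 genes, 3.4% regulated). ITGA2 was at 323, 368 and 444 CPM in untreated and 155, 177 and 161 CPM in treated libraries (log2FC = -1.20 ± 0.29, p.adjust = 0.00413), and ITGA6 (-0.63, p.adjust = 0.00373), ITGA3 (-0.45, 0.000169) and ITGB6 (-0.38, 0.00406) were lower as well. After 24 h 5 of 8 members changed (51.6%, 13.5% regulated). ITGA2 was at 161, 166 and 401 CPM in untreated and 31.1, 31.3 and 40.1 CPM in treated libraries (log2FC = -2.83 ± 0.31, p.adjust = 2.25e-07), 7.10-fold lower. ITGA6 fell from 49.8, 64.5 and 84.5 to 15.7, 20.3 and 17.5 CPM (log2FC = -1.89 ± 0.15, p.adjust = 7.06e-09) and ITGA3 from 539, 523 and 626 to 275, 253 and 259 CPM (log2FC = -1.10 ± 0.08, p.adjust = 1.2e-09). None of these groups overlapped. ITGB5 (log2FC = -0.74, p.adjust = 1.48e-08) and ITGB1 (-0.34, p.adjust = 0.0101) fell less, and ITGB1 lost its call with library size scaling (p.adjust = 0.0825) and without replicate 1 (0.0525). With the block ITGB5 was lower at 4 h as well (0.00648, 38.4% of all genes). Without replicate 1 ITGB6 at 4 h had p.adjust = 0.0662, and without replicate 2 ITGA6 at 4 h had 0.0678.

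In NCI-N87 cells only ITGA2 passed after 4 h in the fit without the block, 1 of 8 members beside 18.2% of 19078 genes. It fell from 203, 234 and 129 CPM to 95.7, 135 and 77.3 CPM (log2FC = -0.88 ± 0.21, p.adjust = 0.00564). Replicate 3 was low in both groups, which overlapped, and each treated library was below the untreated library of its number; with the block, which called 33% of all genes, 6 of 8 members were lower and ITGAV was higher (log2FC = 0.19, p.adjust = 0.0409), and without replicate 1 the call was lost (log2FC = -0.78, p.adjust = 0.155). After 24 h 5 of 8 members changed (62.5%, 29.6% regulated). ITGA6 fell from 218, 205 and 186 CPM to 44.6, 38.3 and 35.5 CPM, 5.14-fold (log2FC = -2.36 ± 0.22, p.adjust = 5.49e-09). ITGB5 fell from 221, 215 and 187 to 70.7, 67.4 and 69.4 CPM (log2FC = -1.59 ± 0.11, p.adjust = 1.24e-10), ITGA2 from 187, 208 and 174 to 77.1, 69.1 and 80.6 CPM (log2FC = -1.33 ± 0.22, p.adjust = 1.72e-05) and ITGB1 from 602, 560 and 577 to 292, 265 and 286 CPM (log2FC = -1.05 ± 0.08, p.adjust = 1.29e-10). For these 4 genes the treated and untreated groups did not overlap. ITGA3 had log2FC = -0.61 (p.adjust = 0.000447). ITGAV (-0.20, p.adjust = 0.0674) and ITGB4 (-0.25, 0.0624) did not pass and were lower with the block (0.0201 and 0.00985, 70.6% of all genes). Scaled by library size alone, the median of all genes rose by 0.26 and that of the members was -0.57 in place of -0.83.

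In MKN1 cells no member changed after 4 h afatinib (3.68% of all genes; 2 of 8 at an unadjusted p under 0.05, 0 by DESeq2). ITGA2 was at 32.3, 27.8 and 56.5 CPM, below the 3 untreated libraries (log2FC = -1.16 ± 0.35, p.adjust = 0.0587), and with the block ITGA2 (1.04e-06), ITGA3 (0.0168), ITGB1 (0.0412) and ITGB4 (0.00432) were lower (13.2% of all genes). The paper lists ITGA2 as regulated in MKN1 after 4 h afatinib, alone or with trastuzumab, at the same limits. The fit without the block did not reach that call, and ITGA2 passed in the fit with it. After 24 h 3 of 8 members changed (25.6%). ITGB6 rose from 4.75, 3.54 and 4.12 CPM to 6.64, 5.90 and 7.04 CPM (log2FC = 0.66 ± 0.15, p.adjust = 0.00103), ITGB5 fell to 71.9, 71.3 and 70.3 CPM (log2FC = -0.33, p.adjust = 0.000878) and ITGA6 to 45.7, 35.6 and 39.8 CPM (log2FC = -0.70, p.adjust = 0.0396). With the block ITGA2 (0.000319) and ITGA3 (0.000463) were lower too (40.4% of all genes). Without replicate 3 none of the 3 passed (adjusted p of 0.0669, 0.147 and 0.549), ITGA6 also failed without replicate 1 (0.153) and with library size scaling (0.0867), and the fit of the compared groups alone left 1 of them, ITGB6. Afatinib and cetuximab were set against each other at the same times in MKN1: no member differed at 4 h (0% of all genes) or 24 h (0.0757%), with 0 of 8 members at an unadjusted p under 0.05 and 0 by DESeq2. The ITGA2 log2FC of afatinib against cetuximab was 0.00 at 4 h (95% interval -0.68 to 0.69) and -0.32 at 24 h (-1.03 to 0.38), intervals that leave room for differences of either sign.

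ITGAV and ITGB4 passed the test without the block in none of the 4 lines after afatinib. ITGAV was at 53.6 ± 1.73 CPM (SD, n = 3) in untreated and 55.6 ± 0.906 CPM in treated MKN7 cells at 24 h (95% interval of the log2FC -0.06 to 0.17), and ITGB4 was at 743 ± 58.9 and 747 ± 5.12 CPM (-0.18 to 0.19). In the lists around them, TNS4 was lower in MKN7, NCI-N87 and MKN1, with log2FC = -4.19 in MKN7, -4.02 in NCI-N87 and -2.66 in MKN1 at 24 h. The shares of all genes changed at 24 h were 51.6% in MKN7, 62.5% in NCI-N87 and 25.6% in MKN1. Of the adaptors and focal adhesion genes, 6 were higher and 9 lower of 27 tested in MKN7, 5 higher and 15 lower of 28 in NCI-N87 and 3 higher and 10 lower of 28 in MKN1. Of 7 hemidesmosome partners, 1 was higher and 5 lower in MKN7 (LAMB3 at -0.61), 0 higher and 2 lower in NCI-N87 (PLEC, a keratin linker, at -0.82) and 1 higher and 0 lower in MKN1. Matrix ligands were split, with 5 higher and 4 lower of 17 in MKN7 (NPNT at 2.16), 5 higher and 8 lower of 17 in NCI-N87 (TGFB1, whose latency peptide ITGB6 binds, at -1.99) and 4 higher and 2 lower of 18 in MKN1 (NPNT at 1.94). Of other integrin subunits 4 were higher and 1 lower of 12 in MKN7 (ITGAM at 1.27), 6 higher and 5 lower of 14 in NCI-N87 (ITGB7 at 0.84) and 2 higher and 2 lower of 15 in MKN1 (ITGAX at 0.96).

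**Figure D4:**
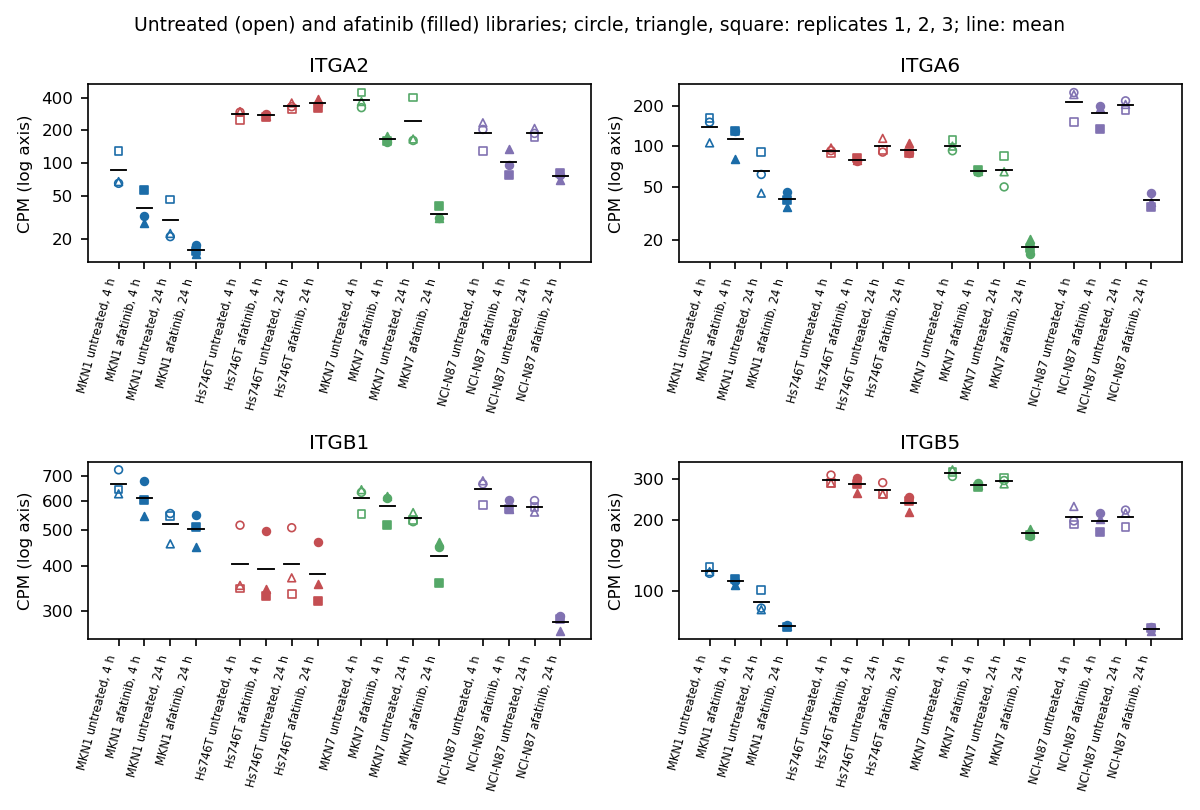
CPM on a log axis (y axis) for ITGA2, ITGA6, ITGB1 and ITGB5 in untreated (open) and afatinib-treated (filled) libraries of each line at 4 h and 24 h (x axis), with circles, triangles and squares for replicates 1, 2 and 3 and black lines at the means. ITGA6 in NCI-N87 falls to 35.5 to 44.6 CPM at 24 h and ITGA2 in MKN7 to 31.1 to 40.1 CPM, while the Hs746T groups overlap for ITGA2.

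In Hs746T cells no member changed in any of the 16 treatment comparisons, and 0% of 18667 genes did (edgeR). At an unadjusted p under 0.05, 4 of the member tests passed, 0 passed by DESeq2, and with the block ITGA6 was lower after 4 h afatinib (log2FC = -0.22, p.adjust = 0.00597) and after 4 h trastuzumab + afatinib (p.adjust = 0.0451). The block called 18.6% of all genes after 4 h afatinib and 1.67% after 4 h trastuzumab + afatinib, so the count of 0% holds for the fit without it. ITGA2 was at 329, 357 and 314 CPM untreated and 350, 392 and 322 CPM after 24 h afatinib (95% interval of the log2FC -0.11 to 0.29), and at 335, 358 and 341 CPM after 24 h EGF (-0.15 to 0.25). Apart from ITGB4, member log2FC values in Hs746T lay between -0.23 and 0.28. For ITGB4 the EGF + cetuximab 4 h value against untreated was 2.74 (p.adjust = 1). It was -0.66 in the fit that left out replicate 1 of every Hs746T condition, among them the library described above.

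The difference between lines was tested itself, as the log2FC of 1 line minus that of another over all 22832 genes. For 24 h afatinib, ITGA2 fell further in MKN7 than in NCI-N87 (difference of -1.52 ± 0.38, p.adjust = 0.00147). Its log2FC in MKN7 was also below that in MKN1 (MKN1 minus MKN7, 1.93 ± 0.39, p.adjust = 0.000248) and in Hs746T (Hs746T minus MKN7, 2.92 ± 0.39, p.adjust = 7.86e-09). In MKN1 and Hs746T the ITGA2 effect itself did not pass without the block. ITGB5 fell further in NCI-N87 than in MKN7 (MKN7 minus NCI-N87, 0.82 ± 0.13, p.adjust = 6.05e-07) and MKN1 (1.24 ± 0.13, p.adjust = 6.4e-13). ITGB1 fell further in NCI-N87 than in MKN7 (0.68 ± 0.25, p.adjust = 0.0358). For MKN1, where the ITGB1 effect itself did not pass, the difference was 0.98 ± 0.25 (MKN1 minus NCI-N87, p.adjust = 0.000958). The ITGA6 effects in MKN7 and NCI-N87 differed by 0.45 ± 0.28 (p.adjust = 0.29, 0.00445 with the block). In counts, 4 of 8 members differed between MKN1 and MKN7 (7.61% of all genes; 2 in each fit that left out 1 replicate, 6 with the block, which called 25.6%), 3 between MKN1 and NCI-N87 (28%; 6 with the block, 44.5%), 4 between Hs746T and MKN7 (18.8%; 5 with the block, 36.1%, and 2 without replicate 3), 4 between Hs746T and NCI-N87 (35.1%; 6 with the block, 48.6%), 3 between MKN7 and NCI-N87 (21.4%; 5 with the block, 38.3%) and 0 between MKN1 and Hs746T (4.41%; 2 at an unadjusted p under 0.05, 0 by DESeq2, 3 with the block, 21.4%). For EGF, MKN1 and Hs746T differed in 1 of 8 members at 4 h (0.92%; 4 with the block, 6.99%), ITGA2 (1.81 ± 0.38, p.adjust = 0.00225), and in 4 of 8 at 24 h (7.93%; 6 with the block, 25.5%), ITGA2 (2.26), ITGA6 (1.47), ITGB5 (0.69) and ITGA3 (0.64). Hs746T was grown in another medium than MKN1, MKN7 and NCI-N87. In every difference with Hs746T, for afatinib and for EGF, line and medium cannot be told apart. The ITGA2 difference at 4 h lost its call without replicate 1 (p.adjust = 0.186) or replicate 2 (0.207), and the ITGB1 difference between MKN7 and NCI-N87 lost it by DESeq2 (0.0631), with library size scaling (0.0904), without the filter (0.0718), with at least 10 counts in every library (0.0675) and without replicate 2 (0.26) or 3 (0.162). The ITGA3 difference for EGF at 24 h was lost without replicate 1 (0.173), 2 (0.203) or 3 (0.077), with library size scaling (0.109) and without the filter (0.0552).

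Members also differed between the untreated 4 h and 24 h libraries of MKN1, where 6 of 8 changed (34.1% of all genes). What else differed between the libraries of these times was not tested. ITGA2 was lower at 24 h (log2FC = -1.55 ± 0.36, p.adjust = 0.000935), as were ITGA6 (-1.10), ITGA3 (-0.76), ITGB5 (-0.45) and ITGB1 (-0.36), and ITGB6 was higher (0.79 ± 0.15, p.adjust = 0.000132). With the block ITGAV (3.09e-06) and ITGB4 (0.000996) were lower as well (47.2% of all genes). Without replicate 1 ITGA6 (p.adjust = 0.0859) and ITGB1 (0.0529) lost their calls, and ITGB1 also without replicate 3 (0.0729) and with library size scaling (0.167). In untreated MKN7 4 of 8 changed (16.4%), ITGA6 (-0.61), ITGA3 (-0.37), ITGB6 (-0.27) and ITGAV (-0.24), none of them in the fit of the compared groups alone and, with the block, ITGA2 (0.00548) and ITGB1 (0.0181) besides (30.9% of all genes); in NCI-N87 (0.267%) and Hs746T (1.48%) none did, with 1 member each at an unadjusted p under 0.05, 0 by DESeq2 and, with the block, ITGA2 in Hs746T (higher at 24 h, p.adjust = 0.0305, 10.2% of all genes). The effect of afatinib grew from 4 h to 24 h for 4 of 8 members in MKN7 (18%), with a difference between times of -1.63 ± 0.41 for ITGA2, lost without replicate 1 (p.adjust = 0.0651) or 2 (0.0652), and of -1.27 ± 0.21 for ITGA6, and differed between times for 4 of 8 in NCI-N87 (35.8%), with ITGA6 at -2.07 ± 0.30, ITGB5 at -1.53 ± 0.16, ITGB1 at -0.90 ± 0.11 and ITGAV at -0.39 ± 0.13. The ITGAV effect turned from 0.19 at 4 h to -0.20 at 24 h, neither past the test without the block, and its difference was lost in every leave-one-out fit. With the block the difference between times was negative for 5 members and positive for ITGB6 in MKN7 (36.7% of all genes), and negative for 6 and positive for ITGB6 in NCI-N87 (50.9%). In MKN1 it differed for ITGB6 (0.78, 1 of 8, 2.77%), a call that every leave-one-out fit lost (with the block also for ITGB4, 0.48, 15.7% of all genes), and in Hs746T for none (0%; 0 at an unadjusted p under 0.05, 0 by DESeq2). The EGF effect in MKN1 differed between times for ITGB5 (0.56 ± 0.10) and ITGB6 (-0.91 ± 0.22), 2 of 8 beside 9.46% (with the block 4 higher and 2 lower beside 26.3%), and neither passed without replicate 1 (adjusted p of 0.128 and 0.277).

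**Figure D5:**
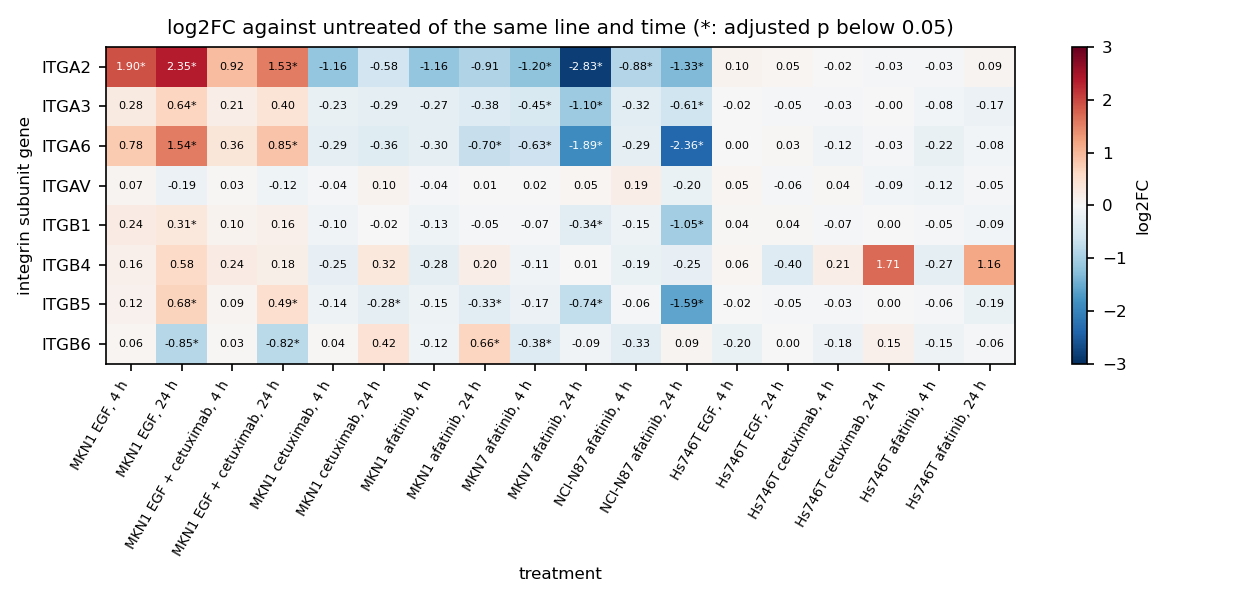
Each cell gives the log2FC (colour and number) of 1 integrin subunit gene (y axis) in 1 treatment against untreated cells of the same line and time (x axis), with an asterisk where the adjusted p was below 0.05. ITGA2 reaches 2.35 with 24 h EGF in MKN1 and -2.83 with 24 h afatinib in MKN7, no asterisk is in the Hs746T columns, and the ITGB4 values there rest on the low levels described in the text.

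Trastuzumab alone changed no member in any of 8 comparisons, nor did adding it to afatinib in 8 comparisons with afatinib alone, and 0% of all genes changed in each of them. At an unadjusted p under 0.05, 1 member test of the former passed (ITGA6 in MKN7 at 24 h, log2FC = -0.48) and 0 of the latter, and DESeq2 called 0 in both. Apart from ITGB4, the member log2FC of the combination against afatinib lay between -0.11 and 0.17.

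Across the 44 conditions, centred within each line, the genes most like each member were listed without a test; the 44 points share cell lines, library scaling and treatments. The likest genes were HPCAL1, HMGA2 and FERMT1 for ITGA2 (Pearson's r of 0.97, 0.97 and 0.96), EFHD2, EMP1 and MAPKAPK2 for ITGA3 (0.98, 0.97 and 0.96), BZW1, GSPT1 and NT5E for ITGA6 (0.99 each), USP14, SELENOT and IPO7 for ITGB1 (0.98, 0.97 and 0.97), PLOD3, CCT8 and ENO1 for ITGB5 (0.98 each), MBP, MAST4 and RAB17 for ITGB6 (0.93, 0.92 and 0.92) and HDAC9, PPP1R13B and ALPK2 for ITGAV (0.89, 0.88 and 0.88). For ITGB4 they were SPINT2, CLDN6 and CALB1 (0.71, 0.69 and 0.68), and without the Hs746T EGF + cetuximab 4 h condition the values were 0.60, 0.57 and 0.64. Among members, ITGA2 and ITGA3 (0.93), ITGA3 and ITGA6 (0.92), ITGB1 and ITGB5 (0.94) and ITGA6 and ITGB5 (0.92) ran closest, and ITGB6 ran against ITGA3 (-0.50).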

How the data were processed

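Poly(A) RNA of 132 libraries (44 conditions, 3 replicates) was sequenced as paired ends from a directional library kit. Per the labels, the authors used Trim Galore, STAR and the hg38 build, and the counting tool and annotation are not given in the sources used here. The deposited values are raw counts per Ensembl gene for each library. Symbols, coordinates and exon lengths came from GENCODE 29 (8404 of 65217 identifiers, 0.0422% of counts, were not in it).

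Counts were fitted in R 4.3.3 by edgeR 4.0.16 (quasi-likelihood test, TMM, filterByExpr at a count of at least 10 and 15 in total), in 1 fit per line, 1 over untreated libraries for lines and 1 over all libraries for differences between lines. Adjusted p-values (Benjamini-Hochberg, two-sided) cover all genes tested. "Changed" means an adjusted p under 0.05. Tables and plots used Python 3.11.15, pandas 2.3.3, numpy 2.4.6 and matplotlib 3.10.9. The MKN1 fit and the fit over untreated libraries were tested on simulated counts, in the first comparison of each. The other fits were not tested in this way. Alternatives were DESeq2 1.42.0, library size scaling, no filter on low genes, a floor of 10 counts per library, the compared groups alone, 1 time alone, each replicate left out, and the replicate number as a block. Same-numbered libraries deviated together (every pair's correlation over 0.1) in 52 of 54 comparisons, the pairing resting on the data and the numbers in the labels; the exceptions were MKN1 trastuzumab + afatinib against afatinib and afatinib against cetuximab, both at 24 h. Likeness used log2 of CPM + 0.5, averaged by condition and centred within lines, over 12814 genes with a mean log2 CPM above 1. All 10 members are described, and from each gene list at most 3 changed genes with the largest log2FC may be named. The members and lists were chosen with earlier results of these data known. Limits of detection (3 counts) cover counting error only. Libraries held 25832557 to 69434151 counts.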

Additional observations from a re-analysis of the deposited data

Results flagged for a closer look

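Several integrin genes responded differently in 2 cell lines by the test of that difference (edgeR, adjusted over 22832 genes). For 24 h afatinib, the log2FC of ITGA2 differed by 1.93 ± 0.39 (SE) between MKN1 and MKN7, 2.92 ± 0.39 between Hs746T and MKN7, 1.39 ± 0.38 between Hs746T and NCI-N87 and -1.52 ± 0.38 between MKN7 and NCI-N87, the first line minus the second in each case. For ITGA6 the differences were 1.20 ± 0.29 (MKN1 minus MKN7), 1.65 ± 0.28 (MKN1 minus NCI-N87), 1.82 ± 0.29 (Hs746T minus MKN7) and 2.26 ± 0.29 (Hs746T minus NCI-N87). For ITGB5 they were 1.24 ± 0.13 (MKN1 minus NCI-N87) and 1.37 ± 0.13 (Hs746T minus NCI-N87). For EGF, MKN1 minus Hs746T, ITGA2 differed by 1.81 ± 0.38 at 4 h and 2.26 ± 0.39 at 24 h, and ITGA6 by 1.47 ± 0.28 at 24 h. In the differences with Hs746T, which had another medium, line and medium cannot be told apart. The ITGA2 difference at 4 h did not pass without replicate 1 or 2, the ITGA6 difference between MKN1 and MKN7 did not pass without replicate 1 (p.adjust = 0.0844), and the ITGA2 difference between Hs746T and NCI-N87 did not pass without replicate 2 (p.adjust = 0.0508).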

How the results depend on the processing

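No called value of a member changed direction under any alternative run. Of 114 calls, 113 were kept by DESeq2, 109 with at least 10 counts in every library, 106 without the filter, all but 13 with library size scaling, and 86, 96 and 96 without replicate 1, 2 and 3. The fit of the compared groups alone kept 41 of the 51 calls it covers. For the untreated lines, 24 h alone kept 35 of 40 calls and 4 h alone kept 37 of 40. With the replicate block all 74 calls it covers were kept, and it added the calls given beside the results. The cause of the changes below was not tested.

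In MKN1 the number of members changed by EGF at 4 h was 1, and 2 by DESeq2, without the filter, with at least 10 counts in every library or with the compared groups alone, 4 with the block and 0 to 2 without 1 replicate. With the block 2 members changed with cetuximab, EGF + cetuximab, or EGF + cetuximab against EGF at 4 h, and 4 with afatinib (1 without the filter); each ranged from 0 to 1 without 1 replicate. At 24 h cetuximab changed 1, but 2 by DESeq2, library size scaling or at least 10 counts, 5 with the block, 0 with the compared groups alone and 0 to 2 without 1 replicate. At 24 h afatinib changed 3, but 5 with the block, 1 with the compared groups alone and 0 to 4 without 1 replicate. EGF at 24 h ranged from 4 to 6, EGF + cetuximab from 1 to 4, and EGF + cetuximab against EGF from 0 to 1 (4 with the block). Alternatives for the comparisons between times were chosen after seeing the data, as was leaving out 1 condition for the likeness of ITGB4. The afatinib effect between times in MKN1 gave 0 with library size scaling, without the filter, with the compared groups alone and in each leave-one-out fit (0 to 0). It gave 2 with the block. That of EGF gave 6 with the block and 0 to 2 without 1 replicate, and untreated cells between times gave 4 to 7 without 1 replicate. In Hs746T the block gave 1 member for afatinib, for trastuzumab + afatinib at 4 h and for untreated cells between times. In MKN7 untreated cells between times gave 2 with library size scaling or no filter, 0 with the compared groups alone and 0 to 5 without 1 replicate. In MKN7 afatinib gave 3 to 4 at 4 h and 4 to 5 at 24 h without 1 replicate, and the effect between times 3 to 4. In NCI-N87 the block gave 7 members for afatinib at 4 h (0 to 2 without 1 replicate) and 7 for the effect between times (3 to 4), and 24 h gave 5 to 6. Between lines, the block gave 3 members for MKN1 against Hs746T (0 to 1 without 1 replicate), 6 for MKN1 against NCI-N87 (3 to 4), 5 for MKN7 against NCI-N87 (2 to 3) and, for EGF at 4 h, 4 (0 to 1). Without 1 replicate MKN1 against MKN7 gave 2 to 2, Hs746T against MKN7 2 to 4, Hs746T against NCI-N87 3 to 4 and EGF at 24 h 3 to 4. Library size scaling moved the median log2FC of all genes by -0.20 for MKN1 EGF at 24 h and by 0.26 for NCI-N87 afatinib at 24 h, and the share of calls that were higher from 48.4% to 20.6% and from 50.4% to 65.9%. At 3 counts ITGB3 was at the limit of detection.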
